A study of Mus musculus with 38 samples.

Results

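Leukaemic bone marrow carrying the fusion oncogene MLL-AF1p was compared with marrow carrying MLL-GAS7, gene by gene, in 14 of the 38 mice of the series. The members were chosen by their titles alone: 9 mice were labelled MLL-AF1p and 5 MLL-GAS7. In both cohorts c-kit+ marrow progenitors had been infected with a retrovirus carrying the oncogene and transplanted into lethally irradiated syngeneic C57BL/6 recipients of either sex. Whole marrow was taken at euthanasia and cryopreserved, and its total RNA was hybridised to 1 Affymetrix mouse array per mouse. The other leukaemias of the series were made in the same way with MLL-AF10 (8 mice), MLL-AF9 (5) and MLL-ENL (7), and 4 wild type C57BL/6 marrows served as normal controls. The samples are whole marrow, not sorted cells, so host cells that survived irradiation or grew back may be included. Fewer cells of a type and less RNA per cell cannot be told apart in such samples. The labels do not say whether mice of a cohort received cells of separate infections, so p-values measure the spread between mice only.

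MLL, encoded by Kmt2a in the mouse, is a histone methyltransferase that keeps HOX genes active in early blood cells. Leukaemic fusions join its front part to one of many partner proteins, and the fusion protein holds progenitors in a self-renewing state with high Hoxa9 and Meis1. Many partners, AF9, ENL and AF10 among them, are nuclear proteins of the transcription machinery. AF1p and GAS7 differ from these in being cytoplasmic. AF1p (Eps15) is an adaptor of clathrin-coated pits, and GAS7 is an F-BAR protein that shapes membranes. Both carry coiled-coil regions, through which such partners are known to bring MLL fragments together as dimers. The comparison therefore set side by side the leukaemias of the 2 fusions of the series with partners of this kind.

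The expression level used here is log2 of the intensity plus a constant of 46.1, after the arrays were set to one median, which lay at 7.66 on this scale. A gene was called at an adjusted p under 0.05 in limma, a linear model fitted across all 13333 genes and all 38 arrays, with Benjamini-Hochberg adjustment. Median intensities of the 14 arrays ran from 129.2 to 208.3. None of 5 signs of RNA quality and labelling passed the threshold between the cohorts in exact 2-sided permutation tests over all 2002 splits (adjusted p = 0.766 for each). The signs were the ratio of the 3' to the 5' probe sets for actin and for Gapdh, the 18S signal, the hybridisation controls and the median intensity. The leukaemia arrays fell into 2 sets that the labels do not name, told apart by 39 probe sets that were higher and 16 that were lower together. What the sets stand for is not known. Set 1 held 4 MLL-AF1p and 2 MLL-GAS7 mice, and set 2 held 5 and 3. Mice MLL-AF1p_801 and MLL-AF1p_803 and mouse MLL-GAS7_407 resembled their own cohorts least, with mean correlations of 0.919, 0.916 and 0.896 against 0.922 to 0.949 for the other mice. Hybridisation controls were brightest in MLL-AF1p_803 and in MLL-GAS7_407 and MLL-GAS7_410. Markers of the marrow's usual red cell precursors were nearly gone in both cohorts: the summed intensity of 19 erythroid genes was 4060 to 6370 in MLL-AF1p and 3980 to 5250 in MLL-GAS7, against 146000 to 205000 in normal marrow.

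The mean distance between mice, taken as 1 minus the Pearson correlation over all genes tested, was 0.081 between the cohorts, 0.060 within MLL-AF1p and 0.077 within MLL-GAS7. The excess of between over within, with the pairs within both cohorts pooled, was 0.0169 (exact 1-sided permutation test over 2002 splits, p = 0.003). By mean correlation mouse MLL-GAS7_407 was nearer to MLL-AF1p (0.898) than to its own cohort (0.896). The other mice were nearer to their own cohorts, MLL-GAS7_406 by little (0.922 against 0.921). Within set 2 the excess was 0.0141 (exact p = 0.0179, the smallest its 56 splits allow). Within set 1 it was 0.0183, with an exact p of 0.133 over only 15 splits, where the smallest possible p is 0.0667. There the mean distance was 0.088 between the cohorts, 0.061 within MLL-AF1p and 0.117 within MLL-GAS7. In set 1 the MLL-GAS7 mice were thus farther from each other than from the MLL-AF1p mice.

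Between the cohorts 537 of 13333 genes were called, or 4.03% (adjusted p by limma), and 2237 had an unadjusted p under 0.05. Of the called genes 326 (2.45% of genes tested) were higher in MLL-AF1p and 211 (1.58%) higher in MLL-GAS7. A difference of at least 2-fold was called for 238 genes (1.79%), 121 higher in MLL-AF1p and 117 in MLL-GAS7. The levels of the 9 and the 5 mice did not overlap for 138 genes (1.04%), with MLL-AF1p above for 83 (0.623%) and MLL-GAS7 above for 55 (0.413%). The median difference over all genes was 0.04 on the log2 scale. The split of the calls between the cohorts depended on scaling: 60.7% were higher in MLL-AF1p here, 43.7% when the deposited scaling was kept and 46.7% when quantile normalization was used. The share was 42.1% without mouse MLL-GAS7_407 and 38.1% without the 5 arrays whose hybridisation controls were brightest.

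**Figure D1:**
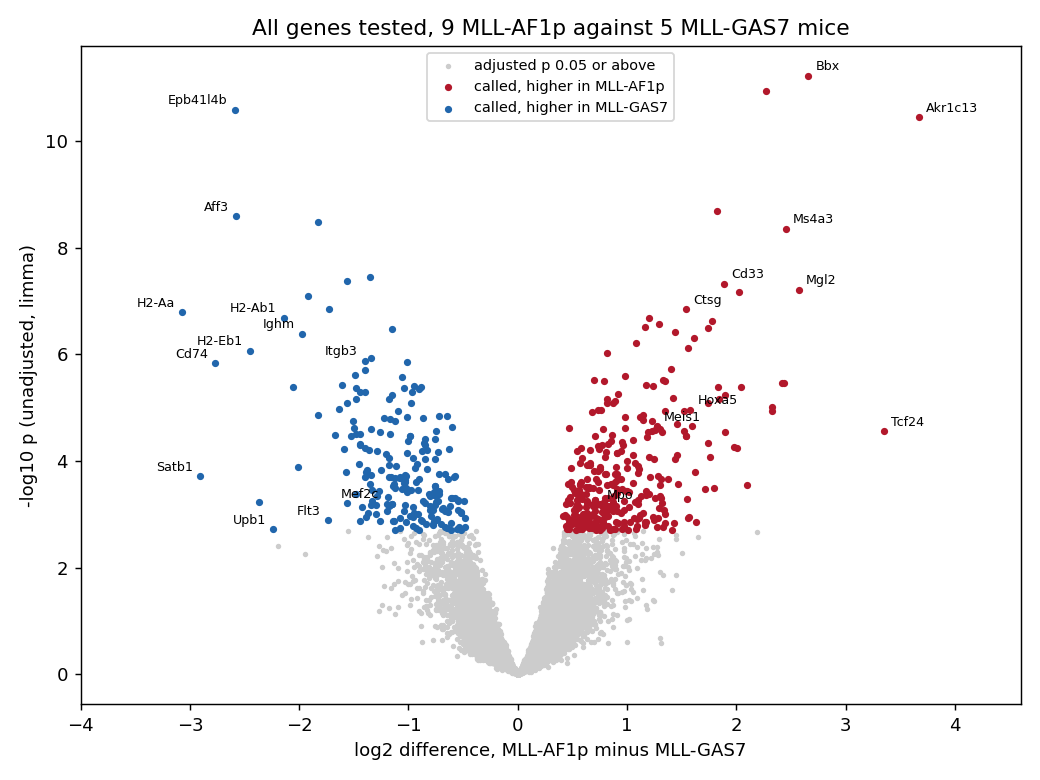
Each point is a gene, with the log2 difference between the mean of 9 MLL-AF1p and 5 MLL-GAS7 mice on the x axis and -log10 of limma's unadjusted p on the y axis. The 326 genes called higher in MLL-AF1p are red and the 211 called higher in MLL-GAS7 are blue. Akr1c13 (3.67) lies farthest to the right and H2-Aa farthest to the left (-3.07).

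Genes of MHC class II formed the group with the most members higher in MLL-GAS7. MHC class II molecules present peptides from engulfed proteins to CD4+ T cells, and dendritic cells, B cells and macrophages are their usual bearers. Of 14 genes measured from the list of MHC class II and dendritic cell genes, 10 were called higher in MLL-GAS7 and 0 in MLL-AF1p, against 1.58% and 2.45% of all genes. The number called higher in MLL-GAS7 ran from 5 to 10 over the alternatives on both array sets. All 14 differences had the same direction, with a median of 1.26 on the log2 scale (MLL-GAS7 minus MLL-AF1p). The summed intensity of the 14 genes ran from 18000 to 91300 in MLL-GAS7, from 5860 to 12400 in MLL-AF1p and from 25600 to 32000 in normal marrow. The cohorts did not overlap in it.

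The promoters of 4 of these genes show the pair of short elements for which MHC class II promoters are known, the X box and the Y box, which bind the RFX and NF-Y factors that recruit the coactivator Ciita. They are shown because all 4 genes were called higher in MLL-GAS7. The sequences are from RefSeq, build GRCm38.p6, 5′ to 3′ on the gene's own strand, all ending before the transcription start. Capitals mark GCAAC, a core of the X box, and GATTGG, the Y box.
H2-Aa: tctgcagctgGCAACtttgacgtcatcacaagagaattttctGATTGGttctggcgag
H2-Eb1: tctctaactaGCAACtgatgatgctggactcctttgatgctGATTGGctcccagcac
H2-Oa: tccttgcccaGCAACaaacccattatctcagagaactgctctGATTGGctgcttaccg
H2-Ob: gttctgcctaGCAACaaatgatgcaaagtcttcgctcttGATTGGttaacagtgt
They lie at chr17:34287857-34287914 (minus strand), chr17:34305766-34305822, chr17:34092293-34092350 and chr17:34238808-34238862 (plus strand), in that order. GCAAC begins 81, 91, 76 and 87 bases before the start, and GATTGG begins 32, 31, 32 and 29 bases after GCAAC. Promoter windows of 250 bases before to 50 after the start were searched on both strands for GCAAC followed by GATTGG with 25 to 35 bases between their first letters, a spacing chosen after these promoters had been read. The pair occurred in 67 of 32851 windows (0.204%). Windows were at hand for 11 of the 14 list members, and 4 of the 11 held the pair. Among the 37 genes tested whose window held it, 6 were called higher in MLL-GAS7 and 1 in MLL-AF1p. Over all genes the shares were 1.58% and 2.45%. The 4 H2 genes shown had been read before the spacing was chosen, so their place in this count was fixed in advance. The 6 were the H2 genes shown, Hes6 and Zmynd11, and the 1 was Gstz1; these 3 names were taken after their values were seen. So was H2-Eb2, another class II gene whose window held the pair, which was not called (0.28, MLL-GAS7 minus MLL-AF1p, adjusted p = 0.764). A match of letters is a description and does not show binding.

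H2-Aa encodes the alpha chain of the class II molecule I-A. Values of the 5 MLL-GAS7 mice are given in the order MLL-GAS7_405, MLL-GAS7_406, MLL-GAS7_407, MLL-GAS7_408 and MLL-GAS7_410. The levels of H2-Aa were 12.83, 11.21, 12.19, 14.41 and 13.54. In MLL-AF1p they ran from 8.57 through a median of 9.86 to 10.57. Every MLL-GAS7 mouse lay above every MLL-AF1p mouse, mouse MLL-GAS7_408 highest and mouse MLL-GAS7_406 lowest. The mean was 12.84 ± 1.23 (SD, n = 5) against 9.77 ± 0.62 (n = 9), a difference of 3.07 ± 0.48 (SE) or 8.37-fold (limma adjusted p = 1.27e-04). All 4 H2-Aa probe sets were called in the same direction.

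Cd74, the invariant chain that guides class II molecules through the cell, had levels of 13.34, 11.57, 12.31, 14.72 and 13.91 in MLL-GAS7. MLL-AF1p mice ran from 9.47 through 10.25 to 11.23, with no overlap. It was 6.84-fold higher in MLL-GAS7 (2.77 ± 0.48 SE, limma adjusted p = 5.57e-04). H2-Eb1, the beta chain of I-E, was 5.48-fold higher (limma adjusted p = 3.77e-04), also with no overlap. H2-Ab1, the beta chain of I-A, was 4.4-fold higher (limma adjusted p = 1.45e-04), and 4 of the 5 MLL-GAS7 mice lay above all MLL-AF1p mice. H2-Oa and H2-Ob, the chains of the H2-O molecule that tempers peptide loading, were 3.79-fold and 2.11-fold higher (limma adjusted p = 7.66e-05 and 0.0119). The names of all probe sets kept for H2-Aa, Cd74 and H2-Ab1 mark probes shared between transcripts or genes, so these 3 were not tested on unshared probes. The H2-Ob call was lost without mouse MLL-GAS7_408 (adjusted p = 0.0864). H2-DMa, a chain of the peptide-loading molecule H2-DM, was 11.57 ± 0.51 (n = 5) against 11.03 ± 0.68 (n = 9) and was not called (limma adjusted p = 0.296). Its partner H2-DMb2 was 9.67 ± 0.90 against 9.62 ± 0.58 (limma adjusted p = 0.965).

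Ciita, the coactivator that switches class II genes on, was 1.73-fold higher in MLL-GAS7 (0.79 ± 0.22 SE, limma adjusted p = 0.0337). MLL-GAS7 mice stood at 8.15, 7.77, 7.16, 9.46 and 8.07, and MLL-AF1p mice at 6.75 to 7.72 with a median of 7.27. Only mouse MLL-GAS7_407 fell within the MLL-AF1p range, and the call was lost without any 1 of mice MLL-GAS7_405, MLL-GAS7_408, MLL-GAS7_410, MLL-AF1p_806 and MLL-AF1p_811 (adjusted p 0.0508 to 0.226). Within array set 1 the adjusted p was 0.968. Among the dendritic cell genes Batf3, Itgax and Flt3 were also called. Batf3, a transcription factor of cross-presenting dendritic cells, was 2.73-fold higher (limma adjusted p = 0.00818, and 0.0609 without mouse MLL-GAS7_408). Itgax, which encodes CD11c, was 2.09-fold higher (limma adjusted p = 0.0166, and 0.0513 or 0.0944 without mouse MLL-GAS7_405 or MLL-GAS7_408). Flt3, the receptor whose ligand drives dendritic cell and progenitor growth, was 11.15, 11.99, 7.98, 12.78 and 10.57 in MLL-GAS7 against 8.00 to 10.24 in MLL-AF1p. It was 3.35-fold higher in the mean (limma adjusted p = 0.0381), but mouse MLL-GAS7_407 lay below every MLL-AF1p mouse, and leaving out 1 mouse at a time ended the call in 8 of 14 cases (mice MLL-GAS7_405, MLL-GAS7_406, MLL-GAS7_408, MLL-GAS7_410, MLL-AF1p_801, MLL-AF1p_808, MLL-AF1p_809 and MLL-AF1p_811, adjusted p 0.0501 to 0.19).

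**Figure D2:**
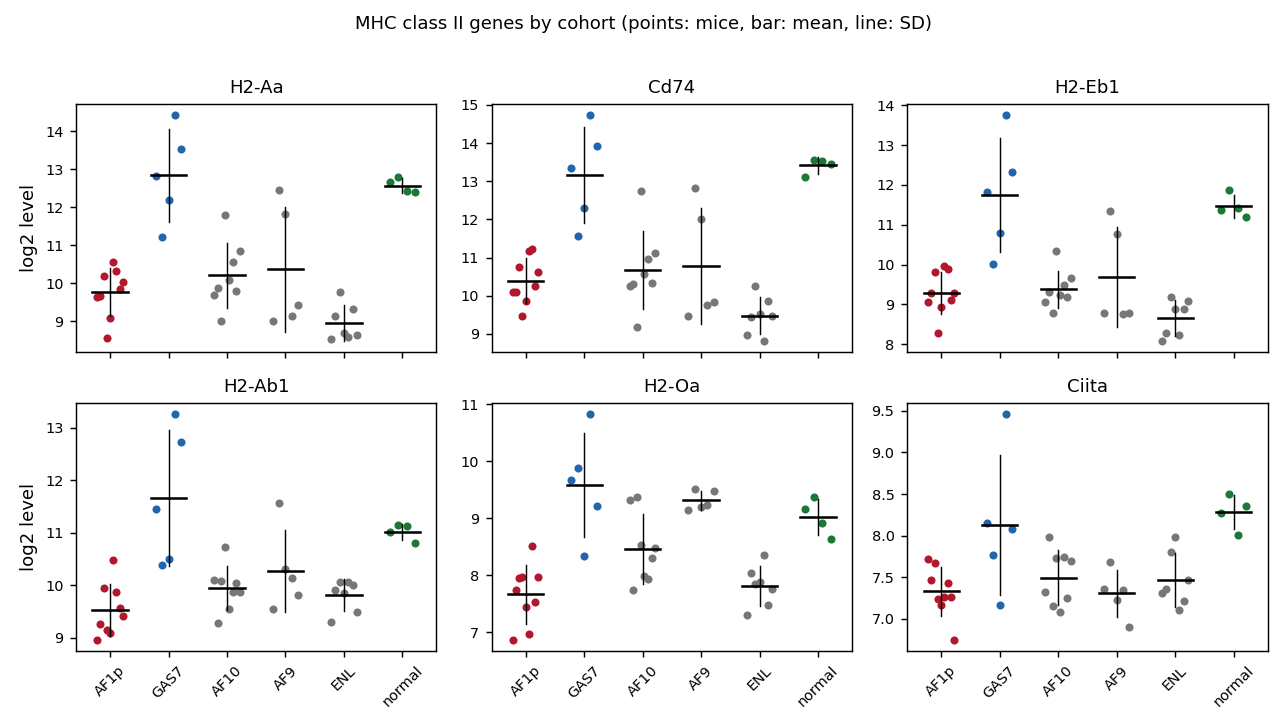
Log2 levels of 6 MHC class II genes in each of the 38 mice, by cohort, with the mean as a bar and the SD as a line. MLL-GAS7 mice (blue) spread upward to 14.41 for H2-Aa, while the 9 MLL-AF1p mice (red) stay at or below 10.57.

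The class II genes varied widely among the MLL-GAS7 mice. Mouse MLL-GAS7_408 had the highest level for 13 of the 14 list members, and mouse MLL-GAS7_406 for the other, the plasmacytoid dendritic cell lectin Siglech. Mouse MLL-GAS7_406 was lowest for 6 and mouse MLL-GAS7_407 for 5. The SD of H2-Aa between MLL-GAS7 mice was 1.23 against 0.62 in MLL-AF1p. Within array set 2 the MLL-AF1p minus MLL-GAS7 difference of H2-Aa was -3.95 (limma adjusted p = 0.00206), and within set 1 it was -1.77 (adjusted p = 0.307), where the 2 MLL-GAS7 mice are MLL-GAS7_406 and MLL-GAS7_407. For Cd74 it was -3.62 (0.0074) and -1.51 (0.33), with the adjusted p in parentheses. With the array set as a term in the model H2-Aa differed by -3.05 (limma adjusted p = 1.20e-04).

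In the other groups H2-Aa averaged 10.21 in MLL-AF10, 10.37 in MLL-AF9, 8.96 in MLL-ENL and 12.57 in normal marrow. MLL-GAS7 exceeded the mean of the 3 other cohorts by 2.99 (7.94-fold, limma adjusted p = 4.27e-05), and MLL-AF1p differed from it by -0.08 (adjusted p = 0.952). Against normal marrow MLL-GAS7 differed by 0.26 (adjusted p = 0.782) and MLL-AF1p by -2.80 (adjusted p = 3.65e-05). These comparisons share cohorts and are given side by side only.

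Some markers of B cells, which also bear MHC class II, stood higher in MLL-GAS7 too. Of 18 B cell genes measured, 4 (Ighm among them) were called higher in MLL-GAS7 and 0 in MLL-AF1p, against 1.58% and 2.45% of all genes, with a median difference of 0.50 (MLL-GAS7 minus MLL-AF1p). Their summed intensity was 11400 to 17200 in MLL-GAS7 and 3800 to 7460 in MLL-AF1p, both below the 34800 to 51700 of normal marrow. Ighm carried much of this sum: over the other 17 genes it was 4210 to 8740 in MLL-GAS7 and 2540 to 4580 in MLL-AF1p, and the cohorts overlapped. Cd72, a B cell coreceptor, was 8.46, 9.02, 9.09, 8.96 and 8.53 in MLL-GAS7 against 6.27 to 8.16 in MLL-AF1p, 2.4-fold higher with no overlap (limma adjusted p = 0.00325). Cd79b, a signalling chain of the B cell receptor, was 2-fold higher (limma adjusted p = 0.00423), again with no overlap. Cd22, an inhibitory lectin of B cells, was 2.65-fold higher (limma adjusted p = 0.00509). The defining B cell genes Cd79a, Ms4a1 and Pax5, named after their values were seen, were not called. Cd79a was 8.51 ± 0.82 (n = 5) in MLL-GAS7, 7.84 ± 0.45 (n = 9) in MLL-AF1p and 12.05 in normal marrow. Ms4a1 was 8.44 ± 0.77, 7.84 ± 0.38 and 11.49, and Pax5 was 8.00 ± 0.47, 7.49 ± 0.88 and 8.97, in the same order. The part of B cells in the class II difference was not tested.

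Ighm, the heavy chain of IgM, was 3.92-fold higher in MLL-GAS7 on its brightest probe set (1.97 ± 0.32 SE, limma adjusted p = 2.09e-04). MLL-GAS7 mice stood at 12.62 to 13.17 and MLL-AF1p mice at 9.48 to 11.77. Of 8 Ighm probe sets 7 had this direction and 2 were called, and the brightest probe set not marked as shared between transcripts or genes gave a difference of 0.04 toward MLL-AF1p (adjusted p = 0.952). The mean of all its probe sets differed by -0.71 (MLL-AF1p minus MLL-GAS7, adjusted p = 0.143).

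Of 14 T and NK cell genes 2 were called higher in MLL-GAS7, against 1.58% of all genes. Klrk1 and Klrd1, receptors of NK cells, were 2.25-fold and 2.17-fold higher (limma adjusted p = 0.00349 and 0.00246). Of 14 genes of stroma, bone and endothelium 3 were called higher in MLL-GAS7 (1.58% of all genes were), namely the niche chemokine Cxcl12 (2.7-fold, limma adjusted p = 0.0268), the fat cell hormone Adipoq (2.46-fold, 0.0253) and the endothelial adhesion molecule Pecam1 (2.21-fold, 0.015). Their summed intensity was 3780 to 7290 in MLL-GAS7 and 2500 to 3450 in MLL-AF1p, with no overlap, and its part in the differences above was not tested. Mouse MLL-GAS7_407 was highest for Cxcl12 (11.48, against 8.22 to 9.50 in the other MLL-GAS7 mice) and Adipoq (9.66, against 6.41 to 7.41). Without mouse MLL-GAS7_407 neither was called (adjusted p = 0.158 and 0.156). Cxcl12 was also lost without mouse MLL-GAS7_405 or MLL-GAS7_408 (0.0549 and 0.0633), and Pecam1 without mouse MLL-GAS7_405 or MLL-GAS7_406 (0.0625 and 0.0586). Resident macrophage genes were called in both directions. C1qa and C1qb, subunits of complement C1q, were 2.63-fold and 2.24-fold higher in MLL-GAS7 (limma adjusted p = 0.0355 and 0.0249), while Gpnmb, a glycoprotein of lysosome-rich macrophages, was 3.35-fold higher in MLL-AF1p (limma adjusted p = 0.00441). The C1qa call was lost without any 1 of mice MLL-GAS7_405, MLL-GAS7_407, MLL-GAS7_410, MLL-AF1p_803 and MLL-AF1p_811 (adjusted p 0.0503 to 0.193), and the C1qb call without any 1 of mice MLL-GAS7_405, MLL-GAS7_407, MLL-GAS7_408 and MLL-GAS7_410 (0.0583 to 0.0824). MHC class I and its peptide processing genes were all 11 on the MLL-GAS7 side, with a median of 0.43, but 0 of 11 were called by limma, with 9 at an unadjusted p under 0.05. The count called was 2 when the deposited scaling was kept and 5 under quantile normalization.

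The opposite pattern was seen in the list of primary granule genes. Early neutrophil and monocyte precursors fill these granules with proteases and myeloperoxidase. Besides such contents the list holds a membrane protein (Ms4a3), a repressor (Gfi1) and a protease inhibitor (Serpinb1a). Of 8 genes measured, 6 were called higher in MLL-AF1p and 0 in MLL-GAS7, against 2.45% and 1.58% of all genes. All 8 differences were positive, as were 56.2% over all genes, with a median of 1.18 (log2). The summed intensity ran from 112000 to 209000 in MLL-AF1p, from 72800 to 105000 in MLL-GAS7 and from 56700 to 121000 in normal marrow, and the cohorts did not overlap. The median stayed between 1.04 and 1.34 under all 30 alternatives, within-set ones included. The number called higher in MLL-AF1p ran from 4 to 6 over the alternatives on both array sets.

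Ms4a3, a membrane protein of granulocyte and monocyte progenitors, was 5.47-fold higher in MLL-AF1p (2.45 ± 0.32 SE, limma adjusted p = 7.30e-06). MLL-AF1p mice ran from 12.22 through 13.03 to 13.55, and MLL-GAS7 mice stood at 11.04, 9.40, 10.26, 10.68 and 10.92. Ctsg, the granule protease cathepsin G, ran from 13.88 through 14.53 to 15.07 in MLL-AF1p and was 13.62, 13.56, 11.98, 12.72 and 12.88 in MLL-GAS7. It was 2.9-fold higher (limma adjusted p = 1.17e-04). Neither gene's cohorts overlapped. Gfi1, a repressor that directs progenitors to neutrophils, was 2.71-fold higher in MLL-AF1p (limma adjusted p = 0.00694), with 8 of 9 MLL-AF1p mice above all MLL-GAS7 mice. Without the 5 arrays of brightest hybridisation controls Gfi1 was not called (adjusted p = 0.107). Serpinb1a, an inhibitor of these proteases, was 2.35-fold higher (limma adjusted p = 0.00246).

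The 2 most familiar genes of the group differed less. Elane, neutrophil elastase, was 1.73-fold higher in MLL-AF1p (limma adjusted p = 0.0325), with MLL-GAS7 mice at 14.64, 13.20, 15.11, 14.43 and 14.64 against 14.60 to 15.47. Mpo, myeloperoxidase, was 1.68-fold higher (limma adjusted p = 0.0247), with 14.61, 14.33, 14.77, 14.24 and 14.19 against 14.61 to 15.62. The Mpo call was lost without mouse MLL-GAS7_408 or MLL-GAS7_410 (adjusted p = 0.0771 and 0.0826), and the Elane call without any 1 of mice MLL-GAS7_406, MLL-GAS7_408, MLL-AF1p_803, MLL-AF1p_809, MLL-AF1p_810 and MLL-AF1p_811 (0.0502 to 0.161). Mpo was also not called without the 5 arrays of brightest hybridisation controls, nor was Elane with only the 14 arrays. Prtn3, proteinase 3, was 15.04 ± 0.23 (n = 9) against 14.67 ± 0.28 (n = 5) and was not called (limma adjusted p = 0.257), nor was Cst7, an inhibitor of cathepsins (10.70 ± 0.70 against 9.56 ± 0.80, adjusted p = 0.171).

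**Figure D3:**
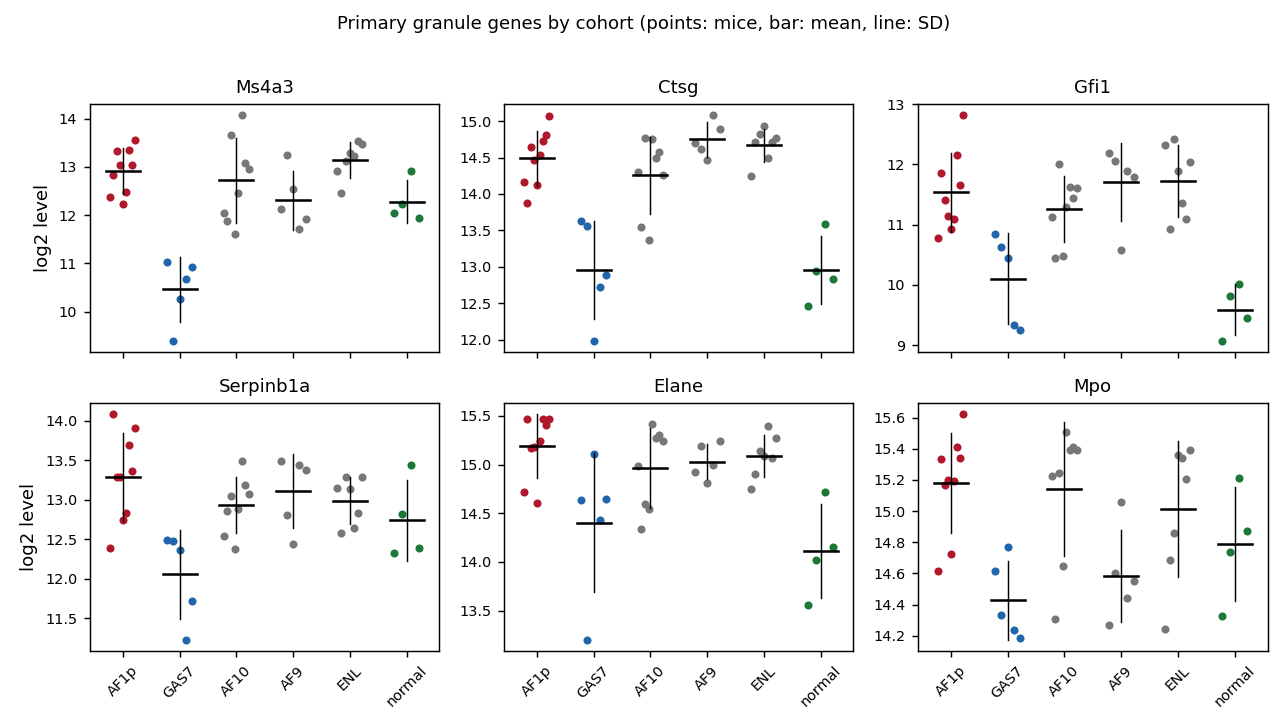
Log2 levels of the 6 called primary granule genes in each of the 38 mice by cohort, with mean and SD. For Ms4a3 and Ctsg the MLL-GAS7 mice lie below all MLL-AF1p mice, with means of 10.46 and 12.96 against 12.91 and 14.49.

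The remaining leukaemias are given beside them. Ms4a3 averaged 12.72 in MLL-AF10, 12.31 in MLL-AF9 and 13.14 in MLL-ENL. MLL-AF1p differed from their mean by 0.19 (limma adjusted p = 0.776) and MLL-GAS7 by -2.26 (adjusted p = 8.07e-06). For Ctsg the same differences were -0.07 (adjusted p = 0.912) and -1.60 (adjusted p = 1.59e-05). Genes of late neutrophils and of monocytes, the cells that primary granule precursors become, had 0 of 16 and 0 of 19 members called by limma, with medians of 0.08 and 0.02. At an unadjusted p under 0.05 there were 1 and 5.

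Among the 12 genes with the largest differences toward MLL-AF1p, 11 had no overlap between the cohorts, against 0.623% of all genes, but they were chosen for a large difference. Akr1c13, an aldo-keto reductase that reduces steroids and other carbonyls, was highest in fold. Its levels in MLL-AF1p ran from 8.82 through 9.73 to 10.15, and in MLL-GAS7 they were 5.84, 6.02, 6.23, 5.74 and 5.84. The difference was 3.67 ± 0.40 (SE), 12.8-fold (limma adjusted p = 1.20e-07). All 5 MLL-GAS7 levels lay below the array median, so the fold depends on the constant added before the log, and the log2 difference ran from 2.39 to 5.56 over the alternatives. MLL-GAS7 was 9.1-fold below the other 3 cohorts (limma adjusted p = 6.27e-07) and also below normal marrow (adjusted p = 0.00343).

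Bbx, an HMG-box transcription factor, had the smallest adjusted p among the named genes. MLL-AF1p mice ran from 10.99 through 12.14 to 12.84 and MLL-GAS7 mice were 9.51, 9.96, 8.83, 9.29 and 9.05, a 6.3-fold difference (2.66 ± 0.27 SE, limma adjusted p = 7.45e-08). All 5 Bbx probe sets were called. MLL-AF1p exceeded the mean of the other 3 cohorts by 2.06 (limma adjusted p = 1.17e-08), with means of 11.24 in MLL-AF10, 9.25 in MLL-AF9 and 9.28 in MLL-ENL, while MLL-GAS7 differed from them by -0.59 (adjusted p = 0.159).

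Tcf24, a basic helix-loop-helix factor, was 10.2-fold higher in MLL-AF1p (limma adjusted p = 0.00325) but spread from 7.72 through 10.44 to 12.61 there. MLL-GAS7 mice stood at 6.94 to 7.43, all under the array median. Mgl2, a galactose lectin of macrophages and dendritic cells, was 5.94-fold higher (limma adjusted p = 6.79e-05), and Sash1, a scaffold protein, 5.43-fold (adjusted p = 9.95e-04). Mgam, a maltase that also marks neutrophils, was 5.35-fold higher (limma adjusted p = 0.00101). Myof, a membrane repair protein, was 5.03-fold higher (adjusted p = 0.00176), and Ms4a6d, a relative of Ms4a3 found in macrophages, 5.02-fold (adjusted p = 0.00185). Cacna1b, a neuronal calcium channel subunit, was 4.29-fold higher (limma adjusted p = 0.0148, and 0.053 without mouse MLL-GAS7_410) and Stat4, which relays interleukin-12, 4.11-fold (adjusted p = 0.00102). Neither was called without the 5 arrays of brightest hybridisation controls (adjusted p = 0.0964 and 0.062). Pax8, a developmental factor of thyroid and kidney, was 4.04-fold higher (limma adjusted p = 6.79e-05). Stat4 was the gene whose cohorts overlapped, since mouse MLL-GAS7_405 stood at 8.59 within the MLL-AF1p range of 8.30 to 9.66. Mgam, Myof and Cacna1b also lay under the array median in all 5 MLL-GAS7 mice.

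Of the 12 largest differences toward MLL-GAS7, 4 were the class II genes H2-Aa, Cd74, H2-Eb1 and H2-Ab1, and 1 was Ighm. Epb41l4b, a FERM-domain protein of the cell cortex, was 9.91, 10.43, 9.14, 10.33 and 9.60 in MLL-GAS7 against 6.67, 7.27 and 7.95 as the lowest, median and highest of MLL-AF1p. It was 6.02-fold higher (2.59 ± 0.28 SE, limma adjusted p = 1.15e-07) with no overlap. Aff3, a nuclear protein of lymphoid cells whose family also supplies MLL fusion partners, was 8.92, 10, 8.45, 8.96 and 7.76 in MLL-GAS7. MLL-AF1p mice lay at 5.92 to 6.97, all below the array median. The difference was 5.96-fold (2.58 ± 0.33 SE, limma adjusted p = 5.66e-06), and the level in MLL-GAS7 stood between those of the other leukaemias (6.29 to 7.37) and normal marrow (9.84). Both genes were also called within each array set.

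Satb1, a chromatin organiser of T cells and early lymphoid progenitors, was 7.5-fold higher in MLL-GAS7 (limma adjusted p = 0.0117), with 11.92, 12.76, 10.77, 12.18 and 10.82 in MLL-GAS7. MLL-AF1p spread from 6.49 to 11.64, so 1 of its mice lay inside the MLL-GAS7 range. Ikzf2, the Ikaros family factor Helios, was 5.18-fold higher (limma adjusted p = 0.0235), but its call was lost without any 1 of mice MLL-GAS7_405, MLL-GAS7_406 or MLL-GAS7_408 (adjusted p 0.0546 to 0.072). The mean of Ikzf2 was 12.49 in MLL-AF9 and 11.65 in MLL-GAS7. Nrip1, a corepressor of nuclear receptors, was 4.18-fold higher (limma adjusted p = 0.00102). Rtn1, a reticulon of the endoplasmic reticulum, was 4.02-fold higher (limma adjusted p = 0.00885, and 0.126 without the 5 arrays of brightest hybridisation controls). Upb1, which completes pyrimidine breakdown, was 4.71-fold higher with an adjusted p of 0.0483 by limma, and was not called under 20 of its 30 alternatives.

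**Figure D4:**
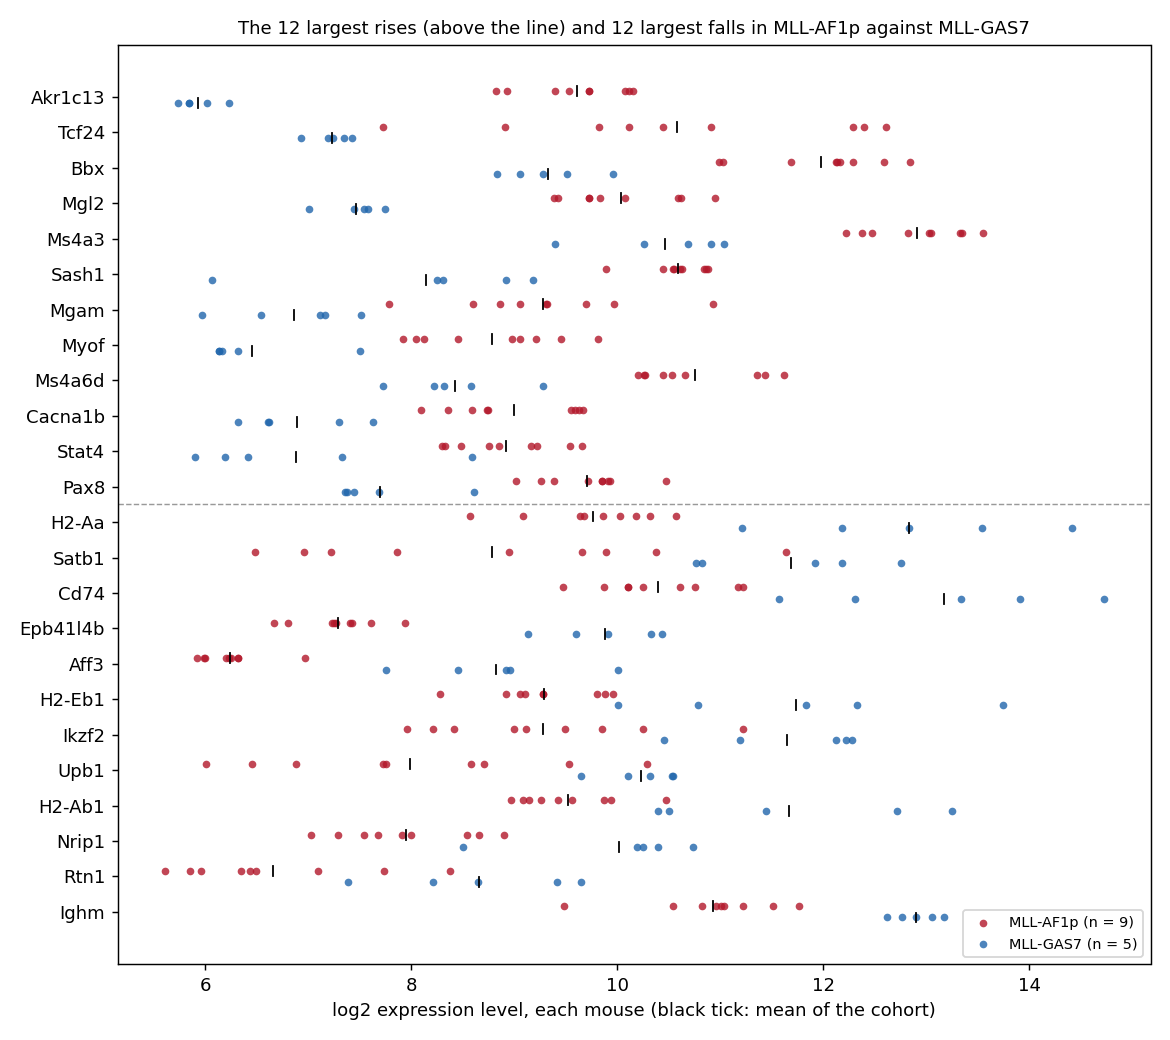
Log2 level in each MLL-AF1p mouse (red, n = 9) and each MLL-GAS7 mouse (blue, n = 5) of the 12 genes with the largest called difference toward each cohort, with the cohort mean as a black tick. The MLL-GAS7 points of Akr1c13 (5.74 to 6.23) are far from the MLL-AF1p points (8.82 to 10.15), whereas those of Upb1 and Satb1 overlap.

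The HOX programme of MLL leukaemia was present in both cohorts and stronger for part of it in MLL-AF1p. Of 8 HoxA genes measured 2 were called higher in MLL-AF1p and 0 in MLL-GAS7, against 2.45% and 1.58% of all genes. The number called higher in MLL-AF1p ran from 1 to 3 over the alternatives on both array sets. Of the 8 differences 7 were positive, as were 56.2% over all genes, with a median of 0.63. Hoxa5 was 3-fold higher in MLL-AF1p (1.58 ± 0.31 SE, limma adjusted p = 0.00184). Its MLL-AF1p mice kept to a narrow range, 10.01 to 10.62, while MLL-GAS7 mice stood at 9.25, 9.64, 9.39, 8.99 and 6.35, with mouse MLL-GAS7_410 far below the rest. Without mouse MLL-GAS7_410 the difference was 0.99 (adjusted p = 0.00541). Hoxa7 was 2.49-fold higher (limma adjusted p = 0.0239), but all 5 MLL-GAS7 levels lay under the array median and the call was lost without mouse MLL-GAS7_408 or MLL-GAS7_410 (adjusted p = 0.0817 and 0.0724). Hoxa7 was also not called with weighted arrays, without the 5 arrays of brightest hybridisation controls or without the 3 arrays least like their cohorts. Hoxa9, the gene best known to sustain these leukaemias, was 12.77 ± 0.45 (n = 9) against 12.14 ± 0.43 (n = 5) and was not called (0.63 ± 0.22 SE, limma adjusted p = 0.109). It was called without mouse MLL-AF1p_801 (0.73, adjusted p = 0.0428). In both cohorts Hoxa9 was far above the 7.78 of normal marrow, by 4.99 in MLL-AF1p and 4.36 in MLL-GAS7. Hoxa10 was 10.50 ± 0.62 against 9.87 ± 0.64 (limma adjusted p = 0.29). The 4 HoxB genes measured had 0 calls by limma, with 1 at an unadjusted p under 0.05.

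Meis1, which binds DNA together with HOX proteins, was 9.66 to 10.96 in MLL-AF1p with a median of 10.51. MLL-GAS7 mice stood at 9.01, 9.82, 8.39, 9.19 and 9.57, and Meis1 was 2.41-fold higher in MLL-AF1p (1.27 ± 0.26 SE, limma adjusted p = 0.00295). MLL-GAS7 was below the other 3 cohorts (-1.66, limma adjusted p = 4.06e-05), and MLL-AF1p differed from them by -0.39 (adjusted p = 0.339). Mef2c, a MADS-box factor of lymphoid and monocyte progenitors that is also an MLL target, ran the other way. It was 12.26, 12.38, 12.13, 12.56 and 11.92 in MLL-GAS7 against 10.23 to 11.35 in MLL-AF1p, 2.3-fold higher (1.20 ± 0.32 SE, limma adjusted p = 0.0246) with no overlap. All 5 Mef2c probe sets were called, although the gene's own call was lost without mouse MLL-GAS7_405 or MLL-GAS7_408 (adjusted p = 0.051 and 0.0771). Mef2c was also not called without the 5 arrays of brightest hybridisation controls or without the 3 arrays least like their cohorts. Of all 16 MLL target genes measured, 3 were called higher in MLL-AF1p and 1 in MLL-GAS7, against 2.45% and 1.58% of all genes. These were Hoxa5, Hoxa7, Meis1 and Mef2c, all given above.

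**Figure D5:**
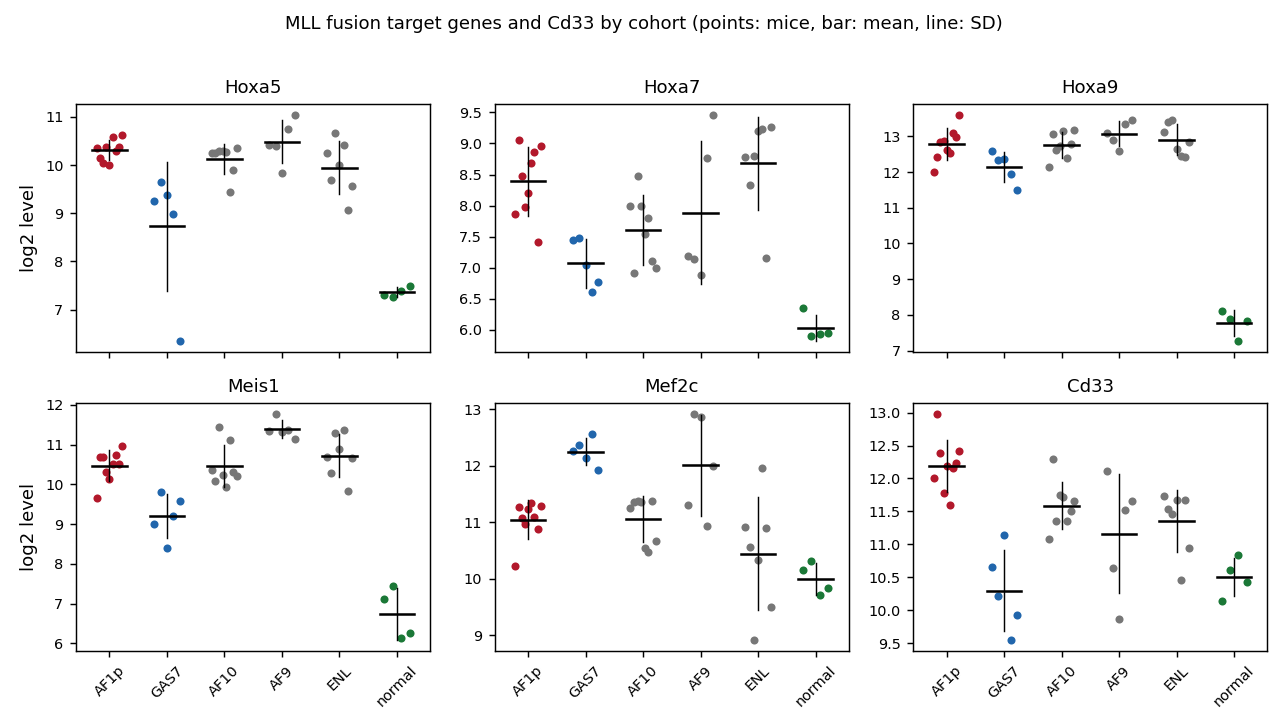
Log2 levels of Hoxa5, Hoxa7, Hoxa9, Meis1, Mef2c and the surface marker Cd33 in each of the 38 mice by cohort, with mean and SD. Hoxa9 lies near 12 to 13 in every leukaemia cohort, Meis1 is lower in MLL-GAS7 (9.20) than in MLL-AF1p (10.46), and Mef2c is higher (12.25 against 11.05).

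Of the genes of MLL and the fusion partners 0 of 6 were called by limma, with 1 of them at an unadjusted p under 0.05 (Mllt10, 0.0253). With the mean of its probe sets Mllt10 was called higher in MLL-AF1p (limma adjusted p = 0.00305). Kmt2a was 9.92 ± 0.23 in MLL-AF1p and 10 ± 0.14 in MLL-GAS7 (adjusted p = 0.833). Eps15, the partner in MLL-AF1p, was 11.66 ± 0.38 against 11.69 ± 0.42 (adjusted p = 0.958). Gas7 was 9.41 ± 0.58 against 8.95 ± 0.39 (adjusted p = 0.563). Whether these probe sets read the retroviral fusion is not known, so they do not check the labels. Of the 23 endocytosis adaptors measured 0 were called by limma and 0 had an unadjusted p under 0.05. Of 16 F-BAR genes 1 was called, against 4.03% of all genes, namely Srgap3 (1.95-fold higher in MLL-GAS7, limma adjusted p = 0.0351). Its call was lost without any 1 of 8 mice (adjusted p 0.05 to 0.0976: MLL-GAS7_406, MLL-GAS7_407, MLL-GAS7_408, MLL-AF1p_803, MLL-AF1p_804, MLL-AF1p_808, MLL-AF1p_809 and MLL-AF1p_810).

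Cd33, a myeloid lectin and a target of antibody therapy in human leukaemia, was higher in MLL-AF1p. Its mice ran from 11.60 through 12.19 to 12.98, and MLL-GAS7 mice stood at 10.66, 10.21, 11.14, 9.55 and 9.93, with no overlap. The difference was 3.72-fold (1.89 ± 0.28 SE, limma adjusted p = 5.69e-05). It was the 1 of 13 leukaemia stem cell surface markers called, against 4.03% of all genes. MLL-AF1p exceeded the other 3 cohorts by 0.82 (limma adjusted p = 0.0228) and MLL-GAS7 differed from them by -1.07 (adjusted p = 0.0102).

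Of 10 glycolysis genes 4 were called higher in MLL-AF1p and 0 in MLL-GAS7, against 2.45% and 1.58% of all genes, and the median was 0.51. Hexokinase Hk1 was 1.66-fold higher (limma adjusted p = 0.00184) and triose phosphate isomerase Tpi1 1.69-fold (adjusted p = 0.00184). Pyruvate kinase Pkm was 1.77-fold higher (limma adjusted p = 0.0148), and phosphoglycerate kinase Pgk1 1.43-fold (adjusted p = 0.0337). The Pkm call was lost without mouse MLL-GAS7_407 (adjusted p = 0.0515) and the Pgk1 call without any 1 of mice MLL-GAS7_405, MLL-GAS7_406, MLL-GAS7_407, MLL-GAS7_408, MLL-AF1p_803, MLL-AF1p_809 and MLL-AF1p_811 (0.0589 to 0.107). Without the 5 arrays of brightest hybridisation controls Hk1, Tpi1 and Pkm were not called (adjusted p = 0.0603, 0.0779 and 0.138), nor was Hk1 with the mean of its probe sets (0.299). The median kept its direction under all 30 alternatives, from 0.38 to 0.64, while the number called on both array sets ran from 1 to 6. Ribosome, respiration and mitosis genes had 0 calls by limma in either direction, among 12, 26 and 21 measured, and 0, 1 and 0 had an unadjusted p under 0.05. DNA replication genes had 25 of 26 differences toward MLL-AF1p (56.2% over all genes), overlapping mean levels in the 2 cohorts, a median of 0.22, 0 calls by limma and 3 at an unadjusted p under 0.05.

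Single members of other lists were called. Toward MLL-GAS7 these were the G1 cyclin Ccnd2 (1.99-fold, limma adjusted p = 0.00353), the survival gene Bcl2 (2.11-fold, 0.0124), the p53 target Sesn1 (2.22-fold, 1.84e-04), the integrin subunit Itgb3 (2.63-fold, 5.25e-04), the polycomb ubiquitin ligase Rnf2 (1.7-fold, 0.00388) and its relative in the complex Cbx6 (2.2-fold, 0.0391). Also higher there were Tspan33 (2.6-fold, 0.01), a tetraspanin of red cell precursors that lay under the array median in all 9 MLL-AF1p mice and in 4 of 5 MLL-GAS7 mice (6.87 to 7.33, against 9.15 in MLL-GAS7_408), and Mycl (1.52-fold, 0.0491), a MYC relative. Toward MLL-AF1p they were the CDK inhibitor Cdkn2c (1.74-fold, limma adjusted p = 0.0212), the Ras-ERK brake Spry2 (2-fold, 0.0074), the integrin subunit Itgb5 (1.54-fold, 0.0242) and the endotoxin receptor Tlr4 (1.57-fold, 0.0474). Platelet gene Gp9 (2.92-fold, limma adjusted p = 0.0219) and basophil protease Mcpt8 (2.15-fold, 0.00882) were higher there too. MLL-AF1p exceeded the mean of the other 3 cohorts in Cdkn2c (limma adjusted p = 1.53e-04), with 12.68 against 12.80 in MLL-AF10, 11.08 in MLL-AF9 and 11.15 in MLL-ENL.

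Many of these single calls did not hold when 1 mouse was left out. Leaving out 1 mouse ended the call of Mycl in 10 of 14 cases (all but MLL-GAS7_406, MLL-AF1p_801, MLL-AF1p_803 and MLL-AF1p_810; adjusted p up to 0.193), of Tlr4 in 10 (all but MLL-GAS7_405, MLL-GAS7_407, MLL-AF1p_801 and MLL-AF1p_806; up to 0.178) and of Cbx6 in 8 (MLL-GAS7_405, MLL-GAS7_406, MLL-GAS7_408, MLL-GAS7_410, MLL-AF1p_803, MLL-AF1p_804, MLL-AF1p_808 and MLL-AF1p_811; up to 0.21). Itgb5 was lost without mouse MLL-GAS7_405, MLL-GAS7_407 or MLL-AF1p_809 (adjusted p up to 0.0854) and Gp9 without MLL-GAS7_405, MLL-GAS7_407 or MLL-GAS7_410 (up to 0.0693). Cdkn2c was lost without MLL-GAS7_405 or MLL-GAS7_408 (adjusted p = 0.0923 and 0.0591), Bcl2 without MLL-GAS7_406 (0.0532), Tspan33 without MLL-GAS7_408 (0.0815; also 0.2 without probe sets marked as shared) and Mcpt8 without MLL-GAS7_410 (0.0678). Ccnd2, Sesn1, Itgb3, Rnf2 and Spry2 were called in all 14 cases. With the mean of their probe sets Spry2 (0.27, adjusted p = 0.559) and Rnf2 (0.0727) were not called, and with only the 14 arrays Ccnd2, Rnf2 and Spry2 were not (0.0541, 0.055 and 0.0803). Without the 5 arrays of brightest hybridisation controls Spry2, Mcpt8, Cdkn2c, Itgb5, Gp9 and Mycl were not called (adjusted p 0.0642 to 0.361).

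Each cohort was also set against the remaining groups. Against the mean of MLL-AF10, MLL-AF9 and MLL-ENL, 563 genes were called in MLL-GAS7 (4.22%), 125 higher (0.938%) and 438 lower (3.29%), and 251 in MLL-AF1p (1.88%), 74 higher (0.555%) and 177 lower (1.33%). The MLL-GAS7 count ranged from 266 without mouse MLL-GAS7_410 to 1177 without mouse MLL-GAS7_406, and the MLL-AF1p count was 84 without mouse MLL-AF1p_803. Against normal marrow 4873 genes were called in MLL-AF1p (36.5%), 24.2% of those tested being higher and 12.3% lower. In MLL-GAS7 3613 were called (27.1%), 16.7% higher and 10.4% lower. The cohorts hold 9 and 5 mice, so the counts were not compared.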

How the data were processed

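The authors deposited 1 linear intensity per probe set and array, and the values show that a mean trimmed by 2% on either side equals 500 on each array. Their software: not given in the sources used here. Of 45101 probe sets 64 are controls, 34945 carry 1 gene symbol in the annotation used, 932 several and 9160 none; those with several or none were not named. Values became log2(intensity + 46.1), the 25th percentile of all values being 46.1. Array medians spanned 0.537, so arrays were shifted to one median. Probe sets above their array's median on at least 4 arrays were kept (23902 with 1 symbol), and the brightest stood for each of 13333 genes (6007 had several). Folds are ratios on this log2 scale and understate changes of dim genes.

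One limma 3.58.1 model (R 4.3.3) of 6 group means over 38 arrays (32 residual degrees of freedom) gave moderated 2-sided tests. The array sets were found from probe set values, starting from a probe set picked because it split every leukaemia cohort. Scores of the leukaemia arrays left a gap from -1.33 to 1.51. The normal arrays scored -1.01 to 0.02, inside this gap, and were placed in set 2. On simulated data with 13333 genes the comparison of MLL-AF1p and MLL-GAS7 recovered 40% of changes of 1.5-fold, 68% of 2-fold, 96% of 4-fold and 98% of 8-fold. Of its 160 calls 9 were false. The simulated noise was normal and independent between genes, and a gene had the same SD in every group. The real arrays need not meet these settings, so the shares hold for the simulated data only. The number of mice limits the precision. Named genes were the 12 largest called differences each way, up to 4 called members of each of 44 gene lists, and any member of lists of at most 17 genes; predicted genes and clones (30 of the calls) were counted but not named. The comparison and the lists were chosen with earlier results of these data known. Alternatives covered the added constant, scaling, filters, probe set choice, the fit, array sets and leaving out arrays. Of 4 sex-linked genes 0 were called by limma and 0 had an unadjusted p under 0.05.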

Additional observations from a re-analysis of the deposited data

Results flagged for a closer look

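In a cohort of 9 or 5 mice, a mouse was picked out here when its gap to the nearest other mouse, as a share of the cohort's range, passed Dixon's 95% limit. Chance picks out about 1 in 20 such sets of values, and 27 of 262 were picked out (87 genes, 43 list means and the hybridisation controls in both cohorts). Each value below is a log2 level, given for some with the range of the cohort's other mice in parentheses.

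In mouse MLL-GAS7_407, Myof was high at 7.50 (6.13 to 6.32 in the others) and Pax8 at 8.61 (7.36 to 7.69), while Nrip1 was low at 8.50 (10.19 to 10.73) and Pbx3 at 9.96 (11.48 to 11.91). Its mean levels were low for Meis and Pbx cofactors (8.43), clathrin adaptors (10.18) and MHC class I (11.20), and high for B cell genes (9.07, against 7.96 to 8.22). In mouse MLL-GAS7_410 Hoxa5 was low at 6.35 (8.99 to 9.64) and Pgk1 high at 14.68 (14.03 to 14.18). In mouse MLL-GAS7_406 Tlr4 was low at 7.48 (8.27 to 8.55), as were C1qb at 8.55 (9.73 to 10.18) and the mean levels of Toll-like receptors (8.62) and resident macrophage genes (7.73). In mouse MLL-GAS7_408 Tspan33 was high at 9.15 (6.87 to 7.33).

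In mouse MLL-AF1p_801, Sash1 (9.89), Mef2c (10.23), Mllt1 (7.25), Pkm (12.82) and the mean of Toll-like receptors (9.06) were the lowest of the cohort. In mouse MLL-AF1p_803 H2-DMa (9.34) and Sesn1 (8.76) were lowest, and its hybridisation controls were highest (12.96, against 11.38 to 11.94). In mouse MLL-AF1p_810 Aff3 (6.97) and the mean of the HoxB cluster (8.64) were highest. Mean levels were also highest for Ras-ERK feedback inhibitors in mouse MLL-AF1p_805 (9.76) and for interferon-stimulated genes in mouse MLL-AF1p_809 (9.89, against 8.26 to 8.62).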

How the results depend on the processing

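Of the 87 genes tried under up to 30 alternatives, 70 were called, and 32 of these were called under every alternative run for them on both array sets. That was 28 for 26 genes and 27 for the other 6 (Cd72, Cd74, H2-Aa, H2-Ab1, Klrk1 and Myof), for which every probe set kept is marked as shared between transcripts or genes. Without the 5 arrays of brightest hybridisation controls 22 of the 70 were not called. With only the 14 arrays 18 of the 70 were not called. Ciita, H2-Ob, Flt3, Elane, Cxcl12, Adipoq, Pecam1, Pkm and Pgk1 were among these. All 70 kept their direction within array set 1 and within set 2, where 10 and 38 were called. Ighm reversed, to 0.04, when probe sets so marked were dropped. The total of 537 calls became 231 with only the 14 arrays, 31 within set 1 and 180 within set 2. In the same order the calls higher in MLL-AF1p were 132, 25 and 82, and those higher in MLL-GAS7 99, 6 and 98. A term for the array set in the model gave 583 calls, 533 of them among the 537. Calls higher in MLL-GAS7 were 438 when the deposited scaling was kept and 427 under quantile normalization. Dropping the 5 arrays whose hybridisation controls were brightest, 148 genes were called higher in MLL-AF1p, with 38.1% of calls on that side. Leaving out 1 mouse gave totals from 355 (without MLL-GAS7_408) to 643 (without MLL-AF1p_801), from 191 to 441 higher in MLL-AF1p and from 128 to 320 higher in MLL-GAS7; the total was 357 without MLL-GAS7_410. Leaving out the 3 arrays least like their cohorts, an alternative chosen after seeing the data, gave 566 calls.

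Against the other 3 cohorts the MLL-AF1p count was 8 within set 1, 48 within set 2, 154 without the 5 bright arrays, 99 without the 3 least alike and 84 to 330 leaving out 1 mouse. The MLL-GAS7 count was 56, 238 and 163 under the first 3 of these and 266 to 1177 leaving out 1 mouse. Within set 1 the excess of the between-cohort over the within-cohort distance was 0.0183 (exact 1-sided permutation test, p = 0.133). The distance within MLL-GAS7 (0.117) exceeded that between the cohorts (0.088) there. The causes were not tested, and the smaller fits also hold fewer arrays. The RNA quality signs kept their side of the threshold. No paired analysis was possible because the 2 cohorts share no mouse numbers. Signal near the array median limits the folds of dim genes.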
